A study of Rattus norvegicus with 18 samples.

Results

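The endothelin, nitric oxide and angiotensin genes described here set the tone of the arteries that supply the cortex. They are Edn1, Ece1, Ednra, Ednrb, Nos1, Nos2, Nos3, Gch1 and Agtr1a. They were chosen by name for their roles in constriction and dilation of vessels, with earlier results of these data known. All 9 have 1 row each among the 30735 genes with deposited values. Their RNA was measured in cerebral cortex from 18 adult Sprague Dawley rats, aged 8 to 10 weeks and with no genetic modification stated. Every rat gave 1 library, and 6 rats made up each group (sham, SAH 1d, SAH 7d). In the SAH rats a nylon filament was passed up the internal carotid artery until it pierced the vessel from inside, which produces subarachnoid hemorrhage (SAH), and tissue was taken after 1 day or 7 days. The sham rats had the same neck surgery under pentobarbital, without the piercing of the vessel, and the day on which they were sampled is not given in the sources used here. The study's methods describe the whole cortex of the operated side, whereas the labels name bilateral cortex and mice. The identifiers of the genes are rat ones, and no sex is given.

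Endothelin is made by endothelial cells as a large precursor that is cut to the active peptide by endothelin converting enzyme. On smooth muscle its A receptor raises calcium and contracts the vessel, while the B receptor on endothelial cells clears the peptide and releases nitric oxide. Nitric oxide is made from arginine by the neuronal, inducible and endothelial synthases, all of which need the cofactor tetrahydrobiopterin, and it relaxes smooth muscle through cyclic GMP. Excess endothelin and loss of nitric oxide are classically linked to the vasospasm that can follow this type of bleeding. Angiotensin acts on the type 1 receptor, another constrictor of smooth muscle.

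Levels are given as FPKM, fragments per 1000 bases of transcript and per 1000000 mapped reads, so that genes can be compared per length. Group comparisons were made on the deposited counts with the quasi-likelihood test of edgeR, and a gene was called at a Benjamini-Hochberg adjusted p under 0.05. The libraries held 27270026 to 38271014 counts. Neuron markers were present in every library, with summed levels of 871 to 3863 FPKM over 6 genes. Among them SAH 1d-3 and, at the later time, SAH 7d-5 stood apart. SAH 1d-3 had a summed neutrophil marker level of 74.4 FPKM and a summed monocyte and macrophage level of 467 FPKM, against at most 12.6 and 91.6 FPKM in the other SAH 1d libraries. In SAH 7d-5 the monocyte and macrophage sum was 6649 FPKM, against at most 179.5 FPKM in the other SAH 7d libraries. The markers of choroid plexus, the tissue that secretes cerebrospinal fluid, set SAH 1d-4 and SAH 1d-6 apart, with sums of 935 and 1410 FPKM over 4 genes against 2.23 to 42.3 FPKM in the other SAH 1d libraries. By edgeR, 2 of these 4 markers were called higher at SAH 1d, and 4 of 4 without SAH 1d-3. Of all 18444 genes tested, 2748 and 2846 were called higher in these fits. SAH 1d-3 held the highest level among all 18 libraries for 6 of the 9 genes, and SAH 7d-5 held the highest level of its group for 6 of them. The counts of calls are therefore also given without these libraries. In bulk tissue, fewer cells of a type and less RNA per cell cannot be told apart.

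The first comparison asked how these genes differed from sham rats 1 day after the bleeding. All 9 genes passed the filter on low counts and were tested. At SAH 1d, 5 of the 9 genes were called, against 25.4% of all 18444 genes tested, and all 5 were higher, against 14.9% of all genes called higher. They were Ednra, Ece1, Nos2, Nos3 and Gch1, and the last 3 were higher by more than 2-fold. CPM is given as counts per 1000000 counts of the library, with the library total scaled by the TMM normalization of edgeR. In CPM the SAH 1d and sham libraries did not overlap for 3 genes, Ece1, Nos2 and Gch1. The shares over all genes were 13.3% in either direction and 7.88% higher in SAH 1d. The median log2 fold change was 0.64 over the 9 genes and 0.0086 over all genes tested. Without SAH 1d-3, 4 genes were called, Ece1, Nos3 and Gch1 as higher and Edn1 as lower. Of all 18444 genes, that fit called 2846 higher and 2406 lower. Without SAH 1d-4 and SAH 1d-6, 4 of the 9 were called, Ece1, Nos2, Nos3 and Gch1, and Ednra had an edgeR adjusted p of 0.0805. Of all genes, 2423 were called higher and 1387 lower there.

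**Figure D1:**
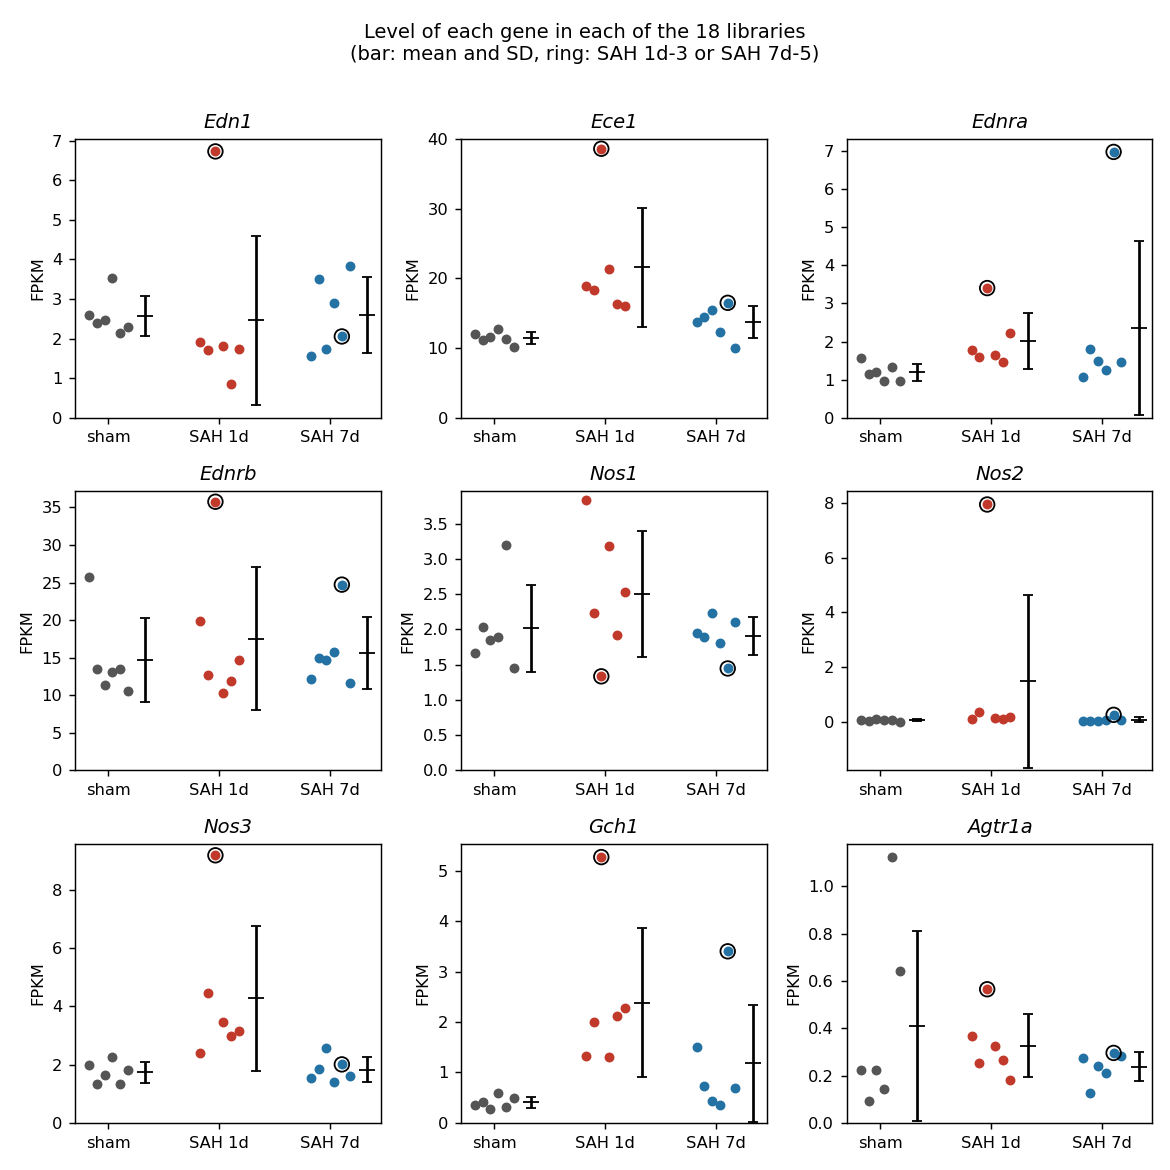
The plot shows the FPKM level of each of the 9 genes (vertical axes, linear) in each library, grouped as sham, SAH 1d and SAH 7d. Points are libraries, bars are the mean and SD of 6 libraries, and rings mark SAH 7d-5 and SAH 1d-3. For Ece1, Nos2, Nos3 and Gch1 every SAH 1d point lies above every sham point, and for Edn1 the 5 SAH 1d points other than SAH 1d-3 lie below every sham point.

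In sham cortex the level of Edn1, the vasoconstrictor peptide, was 2.13 FPKM in the lowest library, 2.43 FPKM at the median and 3.54 FPKM in the highest. The SAH 1d libraries ranged from 0.841 to 6.73 FPKM with a median of 1.78 FPKM, and the SAH 7d libraries from 1.55 to 3.84 FPKM with a median of 2.48 FPKM. The SAH 1d group was split, with SAH 1d-3 at 6.73 FPKM and the other 5 libraries between 0.841 and 1.92 FPKM, each below every sham library. Across all 12 libraries the difference of SAH 1d from sham was not called, with a log2 fold change of -0.16 ± 0.40 (SE, n = 6 per group) and an adjusted p of 0.803 by edgeR. Without SAH 1d-3, Edn1 fell by 0.79 on the log2 scale at SAH 1d, with an adjusted p of 0.0127 by edgeR. In limma voom with sample quality weights and all 12 libraries, the change was -0.73 with an adjusted p of 0.0181. At SAH 7d the libraries lay on both sides of the sham range, and the log2 fold change was -0.024 ± 0.24 with an edgeR adjusted p of 0.962.

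Ece1, the endothelin converting enzyme, stood with Ednrb at the top of the 9 genes in each group. Its sham levels lay close together, from 10.1 to 12.8 FPKM with a median of 11.5 FPKM. At SAH 1d they ran from 16.1 to 38.6 FPKM with a median of 18.6 FPKM, so that the lowest SAH 1d library lay above the highest sham library. Ece1 rose 1.74-fold at SAH 1d, a log2 fold change of 0.80 ± 0.20 with an edgeR adjusted p of 0.0112. Without SAH 1d-3 the log2 fold change was 0.54 and the adjusted p was 0.000655 by edgeR. At SAH 7d the levels were 9.97 to 16.5 FPKM with a median of 14.0 FPKM, and 4 of the 6 libraries were above every sham library in CPM, with an edgeR adjusted p of 0.361 against sham. The ligand and its converting enzyme were thus on different sides of sham in 5 of the 6 SAH 1d libraries.

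The A receptor Ednra, which contracts smooth muscle, was low in all groups. Sham libraries held 0.969 to 1.56 FPKM with a median of 1.18 FPKM, and SAH 1d libraries held 1.46 to 3.40 FPKM with a median of 1.70 FPKM. The ranges overlapped, with 5 of the 6 SAH 1d libraries above the highest sham library in FPKM but only 2 of the 6 in TMM-scaled CPM. Ednra rose 1.56-fold at SAH 1d, a log2 fold change of 0.64 ± 0.22 with an edgeR adjusted p of 0.0454. It was called in 4 of 12 fits that left out 1 library, and without SAH 1d-3 the log2 fold change was 0.41 with an adjusted p of 0.0621 by edgeR. At SAH 7d, 5 libraries held 1.08 to 1.81 FPKM and SAH 7d-5 held 6.98 FPKM, the highest Ednra level of the 18 libraries. SAH 7d-5 also had the highest summed markers of meningeal fibroblasts (642 FPKM), mural cells (123.5 FPKM) and microglia (793 FPKM) and the lowest of neurons (871 FPKM) among the 18, and their part in its Ednra level was not tested. The log2 fold change of SAH 7d against sham was 0.91 ± 0.43 with an edgeR adjusted p of 0.329, and 0.21 without SAH 7d-5.

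Ednrb, the receptor that clears endothelin and is made by endothelial cells and astrocytes, was among the most abundant of the 9 genes. It ranged from 10.6 to 25.8 FPKM in sham, from 10.3 to 35.8 FPKM at SAH 1d and from 11.6 to 24.7 FPKM at SAH 7d, with medians of 13.3, 13.7 and 14.8 FPKM. The 3 groups overlapped along most of their ranges, and in each of them 1 library stood far above the rest. Neither contrast with sham was called, with log2 fold changes of 0.15 ± 0.32 at SAH 1d and 0.035 ± 0.24 at SAH 7d and edgeR adjusted p of 0.767 and 0.945. Both estimates turn negative, to -0.21 and -0.13, without the high library of the SAH group and with that of sham kept. Over all fits with 1 library left out, they reached 0.41 at SAH 1d and 0.31 at SAH 7d.

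The A receptor amounted to 8.60 ± 1.66% of the B receptor level in FPKM in sham (SD, n = 6), 12.4 ± 2.87% at SAH 1d and 13.4 ± 7.50% at SAH 7d. The share ran from 6.05 to 10.6% in sham, from 8.88 to 15.9% at SAH 1d and from 7.96 to 28.2% at SAH 7d, where SAH 7d-5 gave the highest value. The highest shares at SAH 1d, 15.9 and 15.2%, were those of SAH 1d-4 and SAH 1d-6, the libraries with the choroid plexus markers, whose part in the share was not tested. The B receptor was the more abundant of the pair in every library. The ranges of sham and SAH 1d overlapped, and the difference in the share was not tested.

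Nos1, the neuronal synthase, and Nos3, the endothelial synthase, made up nearly all nitric oxide synthase RNA in sham cortex, at 52.3 ± 10.1% and 46.1 ± 10.2% of the summed FPKM (SD, n = 6). The sum itself was 3.28 to 4.63 FPKM in sham, 5.03 to 18.5 FPKM at SAH 1d and 3.28 to 4.84 FPKM at SAH 7d. Every SAH 1d library was above every sham and SAH 7d library in this sum.

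**Figure D2:**
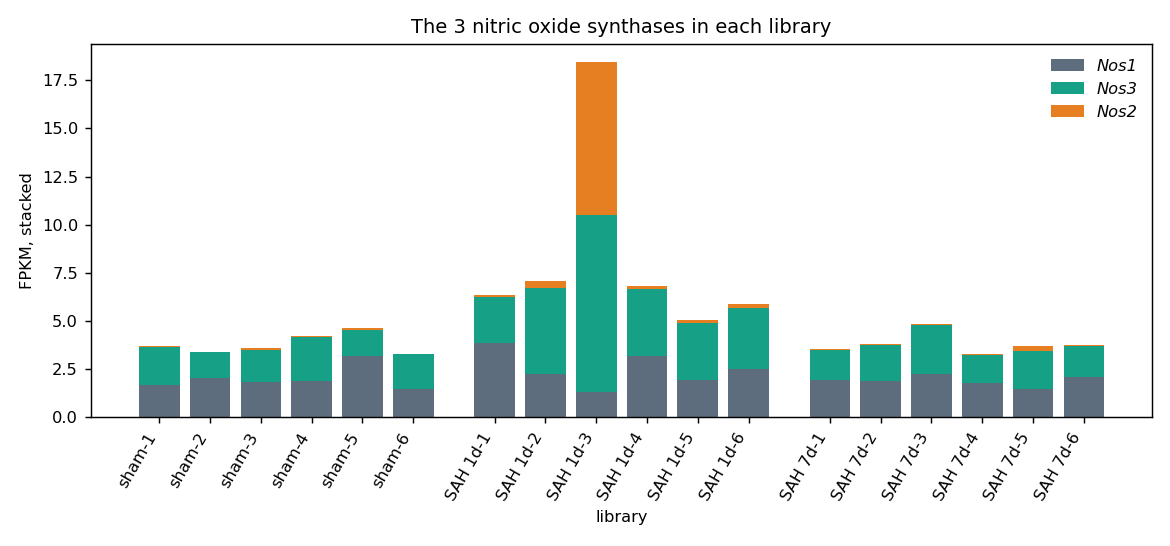
The plot stacks the FPKM levels of Nos1, Nos3 and Nos2 (vertical axis, linear) for each of the 18 libraries (horizontal axis). The SAH 1d bars are 5.03 to 18.5 FPKM high and the sham bars 3.28 to 4.63 FPKM, and Nos2 is a broad band in SAH 1d-3 alone, where it is 7.94 FPKM.

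Nos1 was not called in any comparison. Its levels were 1.45 to 3.20 FPKM in sham, 1.33 to 3.83 FPKM at SAH 1d and 1.45 to 2.23 FPKM at SAH 7d, with medians of 1.87, 2.38 and 1.93 FPKM. SAH 1d-3 had the lowest Nos1 level of all 18 libraries, in contrast to most of the other genes. The log2 fold change at SAH 1d was 0.26 ± 0.22 with an edgeR adjusted p of 0.403, and that at SAH 7d was -0.054 ± 0.15 with an adjusted p of 0.855. Of the markers of the interneurons rich in this synthase, Sst, Npy, Tacr1 and Chodl, 0 of 4 were called in either contrast with sham by edgeR.

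Nos3 was 1.34 to 2.25 FPKM in sham with a median of 1.74 FPKM, and 2.40 to 9.19 FPKM at SAH 1d with a median of 3.31 FPKM. The 2 groups were apart in FPKM. In TMM-scaled CPM the lowest SAH 1d library, at 12.7, lay just below the highest sham library, at 12.9. Nos3 rose 2.28-fold at SAH 1d, a log2 fold change of 1.19 ± 0.30 with an edgeR adjusted p of 0.0124. It remained called without SAH 1d-3, at a log2 fold change of 0.79 and an adjusted p of 0.00431 by edgeR. At SAH 7d the levels were 1.41 to 2.56 FPKM with a median of 1.73 FPKM, and the log2 fold change against sham was 0.027 ± 0.18 with an edgeR adjusted p of 0.941.

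Markers of endothelial cells, the main source of Nos3, differed among themselves in the same contrast. At SAH 1d, 2 of the 8 markers tested were called, against 25.4% of all genes, and both were higher, against 14.9% called higher. They were Cdh5 at 1.01 and the glucose carrier Slc2a1 at 0.71 on the log2 scale. Flt1, Tek, Kdr and Tie1, at 0.34, 0.21, 0.33 and 0.36, and Emcn and Cldn5, at -0.27 and -0.38, were not called. The summed level of the 8 was 66.0 to 104.8 FPKM in sham, 105.5 to 190.1 FPKM at SAH 1d and 84.6 to 116.0 FPKM at SAH 7d. Cldn5, one of the 8, was listed at 0 in many libraries, and without it the sums were 57.9 to 102.6 FPKM in sham, 99.0 to 186.8 FPKM at SAH 1d and 84.6 to 116.0 FPKM at SAH 7d. Nos3 amounted to 2.27 ± 0.594% of the sum of these 7 in sham (SD, n = 6), 3.23 ± 0.918% at SAH 1d and 1.94 ± 0.392% at SAH 7d. These shares overlapped between groups, and the part of the endothelial markers in the rise of Nos3 was not tested. None of the 7 mural cell markers was called at SAH 1d by edgeR, and their summed level was 66.9 to 103.4 FPKM in sham and 47.2 to 77.7 FPKM at SAH 1d.

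Nos2, the synthase that is induced in activated immune and glial cells, was near the limit of detection outside a single library. Sham libraries held 0 to 0.104 FPKM with a median of 0.0694 FPKM, from 0 to 12 counts each, and SAH 7d libraries 0.0231 to 0.266 FPKM with a median of 0.0542 FPKM, from 3 to 31 counts. At SAH 1d the level was 7.94 FPKM in SAH 1d-3, from 1082 counts, and 0.126 to 0.375 FPKM in the other 5 libraries, with a median of 0.176 FPKM over all 6. All 6 SAH 1d libraries were above every sham library, and SAH 1d-3 alone held 89.0% of the summed level of its group. Across the 12 libraries Nos2 rose by 4.34 ± 1.22 on the log2 scale at SAH 1d, with an edgeR adjusted p of 0.0208. Without SAH 1d-3 the log2 fold change was 1.43 with an adjusted p of 0.0633 by edgeR, so the size and the call both rest on that library. The neutrophil and macrophage sums of 74.4 and 467 FPKM in the same library were also the highest of SAH 1d, and their part in the Nos2 level was not tested.

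Gch1, GTP cyclohydrolase, makes the first and rate-limiting step towards tetrahydrobiopterin. It had the smallest adjusted p of the 9 genes at SAH 1d. Sham libraries held 0.273 to 0.594 FPKM with a median of 0.384 FPKM, and SAH 1d libraries 1.31 to 5.27 FPKM with a median of 2.06 FPKM, with a wide gap between the groups. Gch1 rose 5.30-fold, a log2 fold change of 2.41 ± 0.36 with an edgeR adjusted p of 0.00073. Without SAH 1d-3 the log2 fold change was 1.99 and the adjusted p was 0.000101 by edgeR. At SAH 7d the libraries were spread from 0.349 to 3.40 FPKM with a median of 0.712 FPKM, and 4 of 6 were above every sham library in CPM. The log2 fold change against sham was 1.46 ± 0.51 with an unadjusted p of 0.0145 and an edgeR adjusted p of 0.254, and it was 0.80 without SAH 7d-5.

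Agtr1a, the type 1 angiotensin receptor, was rare and uneven. Sham libraries ranged from 0.0907 to 1.12 FPKM with a median of 0.223 FPKM, SAH 1d libraries from 0.182 to 0.565 FPKM with a median of 0.295 FPKM, and SAH 7d libraries from 0.128 to 0.296 FPKM with a median of 0.258 FPKM. The high sham values came from sham-5 and sham-6, and both SAH groups lay inside the sham range. Log2 fold changes were -0.41 ± 0.54 at SAH 1d and -0.79 ± 0.54 at SAH 7d, with edgeR adjusted p of 0.607 and 0.461, and without sham-5 that at SAH 1d was 0.17. Agtr1a and Agtr1b are closely similar in sequence, and how reads shared between them were counted is not given in the sources used here.

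**Figure D3:**
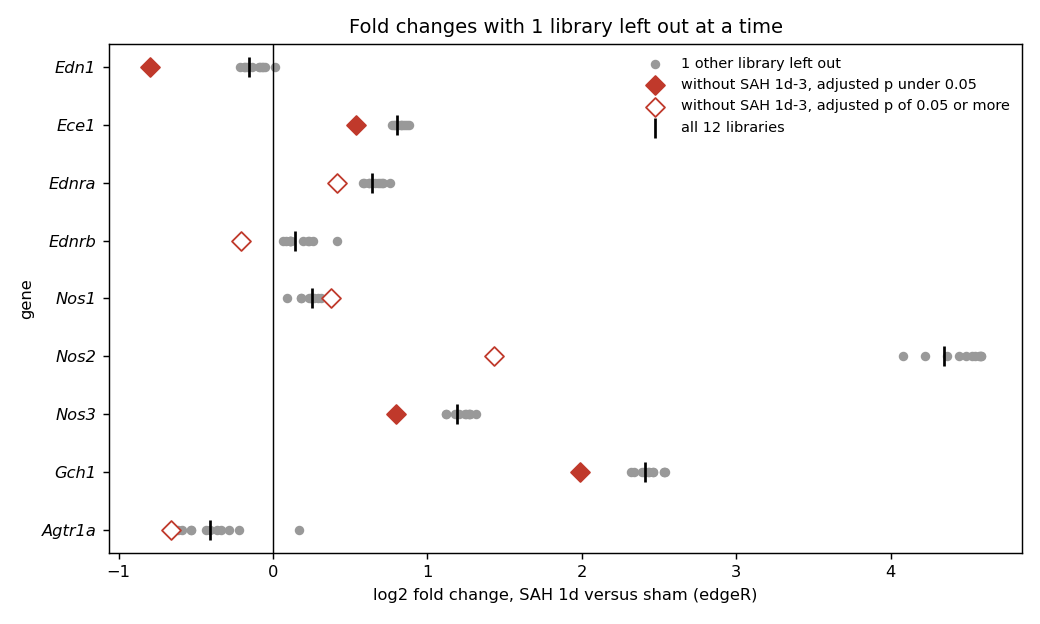
The plot gives the log2 fold change of SAH 1d against sham (horizontal axis) for each of the 9 genes (vertical axis) with all 12 libraries (black bars), without SAH 1d-3 (diamonds, filled at an adjusted p under 0.05) and without each of the other 11 libraries (grey points). Leaving out SAH 1d-3 moved Nos2 from 4.34 to 1.43 and Edn1 from -0.16 to -0.79, while Ece1, Nos3 and Gch1 stayed higher and called.

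Of the 5 genes called at SAH 1d, Ece1, Nos3 and Gch1 were also called in 12 of 12 fits that left out 1 library and in 12 of 12 fits with other settings. The start regions of these 3 genes are shown because they were the members that were higher together in these fits. The sequences are those of RefSeq on the GRCr8 build, 5′ to 3′ on the strand of the gene, from 250 bases before the start of transcription to 50 bases after it. They lie at chr5:155360781-155361080 on the plus strand for Ece1, at chr4:11706532-11706831 on the minus strand for Nos3 and at chr15:22917363-22917662 on the minus strand for Gch1. Capitals mark GC boxes, GGGCGG or its reverse complement CCGCCC.
Ece1: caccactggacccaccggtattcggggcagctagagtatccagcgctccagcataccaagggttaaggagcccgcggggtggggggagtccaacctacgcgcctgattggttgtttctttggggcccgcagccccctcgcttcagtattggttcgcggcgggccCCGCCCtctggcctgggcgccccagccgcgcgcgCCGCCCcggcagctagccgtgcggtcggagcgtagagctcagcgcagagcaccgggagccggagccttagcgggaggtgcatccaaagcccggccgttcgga
Nos3: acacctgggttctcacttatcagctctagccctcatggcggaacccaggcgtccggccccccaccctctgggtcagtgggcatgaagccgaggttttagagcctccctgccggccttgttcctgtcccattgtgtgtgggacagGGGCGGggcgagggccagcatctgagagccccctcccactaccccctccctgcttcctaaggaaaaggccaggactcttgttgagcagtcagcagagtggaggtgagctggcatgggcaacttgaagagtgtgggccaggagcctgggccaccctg
Gch1: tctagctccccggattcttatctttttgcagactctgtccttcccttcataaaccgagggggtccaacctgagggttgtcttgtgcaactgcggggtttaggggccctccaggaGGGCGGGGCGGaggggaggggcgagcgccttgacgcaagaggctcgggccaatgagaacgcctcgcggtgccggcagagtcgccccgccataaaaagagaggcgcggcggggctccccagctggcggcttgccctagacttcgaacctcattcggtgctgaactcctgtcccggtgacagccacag

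GC boxes began 86 and 52 bases before the start in Ece1, 106 bases before it in Nos3, and 136 and 131 bases before it in Gch1, where the pair overlaps by 1 base. Of the 9 genes, 8 had a matching promoter, and Nos2 had none. GC boxes stood in 5 of the 8, in Nos1 and Agtr1a too, which were not called, against 33.1% of 33469 promoters of the same length. The shown regions were 69.3, 63.0 and 63.3% G and C, against a median of 51.7% over all promoters. Those of Edn1, Ednra, Ednrb, Nos1 and Agtr1a were above this median too, at 57.3, 60.7, 54, 55.3 and 60.7%. The letters TATAAA, on either strand, were in 2 of the 8 (Edn1 and Agtr1a, 14.2% of all), TGANTCA in Nos1 (7.33%), ACGTG in Edn1 and Nos1 (19.3%), and TGACG in Ednrb, Nos1, Gch1 and Agtr1a (21.2%). A match is a description of letters only.

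The second comparison asked what remained 7 days after the bleeding. Against sham, 0 of the 9 genes were called by edgeR, and 1, Gch1, had an unadjusted p under 0.05. The test called 0% of all genes, 2842 of which had an unadjusted p under 0.05. DESeq2 and limma voom called 0 of the 9 genes too, and 459 and 2 genes in all. The groups were apart in CPM for 0 of the 9, against 1.23% of all genes. The median log2 fold change over the 9 genes was 0.035. The p-values alone do not show that the genes were back at sham levels, since the largest standard errors were 0.69 for Nos2, 0.54 for Agtr1a and 0.51 for Gch1.

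The third comparison set SAH 7d against SAH 1d, and it shares its libraries with the other 2 comparisons. None of the 9 genes was called by edgeR, against 1.37% of all genes, and 3 had an unadjusted p under 0.05. They were Nos3 at -1.17 ± 0.31, Nos2 at -4.01 ± 1.23 and Ece1 at -0.60 ± 0.22 on the log2 scale, with edgeR adjusted p of 0.0889, 0.141 and 0.217. The groups were apart in CPM for 0 of the 9 genes, against 3.05% of all. For Nos3 and Nos2, 5 of the 6 SAH 7d libraries lay below every SAH 1d library in CPM, and for Ece1 and Gch1 4 of the 6 did. This comparison depended on SAH 1d-3 and on SAH 7d-5. Without both of them, Ece1, Nos2, Nos3 and Gch1 were called as lower at SAH 7d, with edgeR adjusted p of 0.0425, 0.0144, 0.0144 and 0.0448. That fit called 2512 of all 18444 genes, 1382 of them as lower. DESeq2 called 1 of the 9 genes, Nos3, with an adjusted p of 0.00944, and 1012 genes in all.

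**Figure D4:**
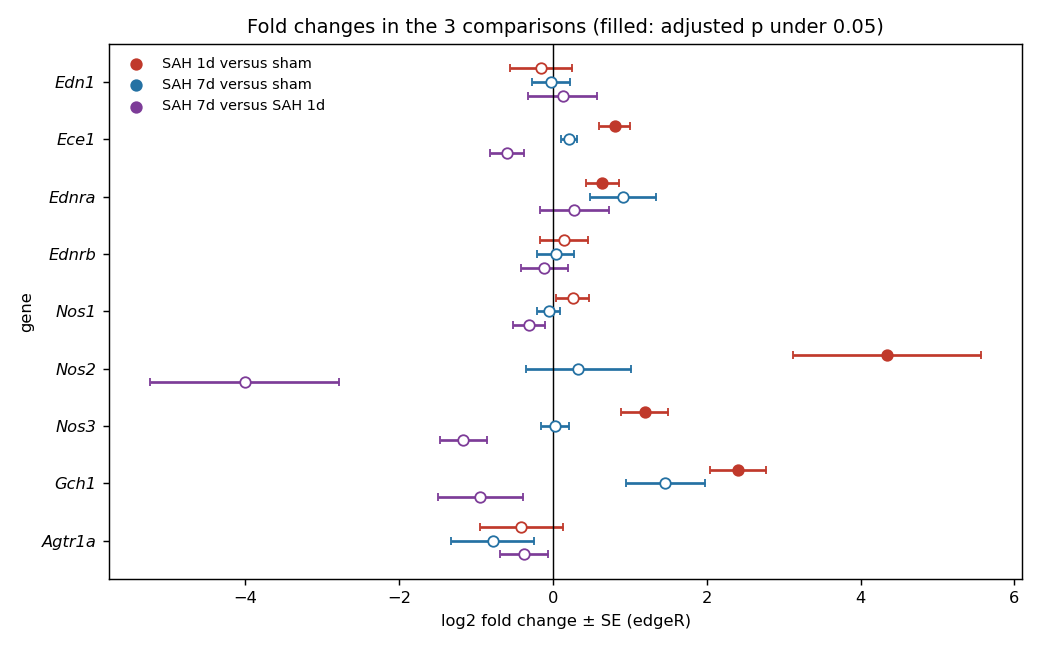
The plot gives the log2 fold change and its SE (horizontal axis) of the 9 genes (vertical axis) in the 3 comparisons, with filled points for an edgeR adjusted p under 0.05. The filled points are Ece1, Ednra, Nos2, Nos3 and Gch1 in SAH 1d versus sham, from 0.64 to 4.34, and no point of the other 2 comparisons is filled.

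The order of the genes by mean FPKM differed little between groups at the top. In sham, Ednrb and Ece1 came first with overlapping ranges at 14.6 ± 5.59 and 11.5 ± 0.886 FPKM (SD, n = 6), followed without overlap by Edn1 at 2.57 ± 0.501 FPKM. Nos1, Nos3, Ednra, Agtr1a and Gch1 then followed with ranges that overlapped from one to the next, and Nos2 came last, below every Gch1 value, at 0.0617 ± 0.0389 FPKM. At SAH 1d, Ece1 at 21.6 ± 8.55 and Ednrb at 17.5 ± 9.52 FPKM overlapped at the top, Nos3 came next at 4.28 ± 2.50 FPKM without overlap, and Agtr1a came last at 0.326 ± 0.133 FPKM. That last place rested on SAH 1d-3, since without it the mean of Nos2 was 0.196 FPKM, below the 0.278 FPKM of Agtr1a. At SAH 7d the order began as in sham with Ednrb at 15.6 ± 4.75, Ece1 at 13.7 ± 2.33 and Edn1 at 2.60 ± 0.956 FPKM, and Gch1 at 1.18 ± 1.16 FPKM stood above Agtr1a without overlap.

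Related genes of the same signals were followed in 7 lists of 58 genes, of which 53 were tested. At SAH 1d, 14 of the 53 (26.4%) were called, 9 higher and 5 lower, close to the 25.4% of all genes. Without SAH 1d-3, 8 were called higher and 10 lower, and without SAH 1d-4 and SAH 1d-6, 7 higher and 4 lower. Those fits called 5252 and 3810 of all 18444 genes. At SAH 7d, 0 of the 53 were called against sham by edgeR. Between SAH 7d and SAH 1d, 1 was higher and 2 lower, while without both SAH 1d-3 and, in the later group, SAH 7d-5, 8 were higher and 5 lower. Over all genes, 252 were called in the former fit and 2512 in the latter. Without SAH 1d-4 and SAH 1d-6, 0 of the 53 were called in this contrast by edgeR, against 70 of all genes.

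Of the genes that supply or control the synthases, 5 of 11 were called at SAH 1d and all 5 were higher, with a median log2 fold change of 0.38 over the 11, against 14.9% of all genes called higher. Without SAH 1d-3, 4 of the 11 were called. The 3 with the largest increase were Arg1, the arginase that competes with the synthases for arginine, by 0.89 ± 0.30, Slc7a2, an arginine carrier, by 0.79 ± 0.21, and Asl, which recycles citrulline to arginine, by 0.50 ± 0.12. Arg1 went from 1.49 to 3.47 FPKM in sham to 2.03 to 8.37 FPKM at SAH 1d, with overlap, and its edgeR adjusted p was 0.0467. The highest value was that of SAH 1d-3, and without it the log2 fold change was 0.58 with an edgeR adjusted p of 0.0819. The arginine carrier Slc7a1 was 8.19 to 12.5 FPKM at SAH 1d and 4.74 to 6.98 FPKM at SAH 7d, a fall without overlap by 0.67 on the log2 scale with an edgeR adjusted p of 0.0292. Nos3, Gch1 and Arg1 also stand among pathway genes that the study drew from these libraries, so their counts are not independent evidence.

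The remaining lists gave fewer calls. The other endothelin genes tested, Edn3, Ece2 and Mme, a peptidase that degrades endothelin, gave 0 calls of 3 in all comparisons by edgeR with all libraries, with log2 fold changes of -0.97, -0.46 and -0.96 at SAH 1d and unadjusted p of 0.0343, 0.0481 and 0.0286. Without SAH 1d-3, Edn3 was called lower at SAH 1d, at -0.73, and without SAH 7d-5 as well Edn3 and Ece2 were called higher at SAH 7d than at SAH 1d, at 1.07 and 0.49. Of 7 genes for the nitric oxide receptor and cyclic GMP, 1 was called at SAH 1d, the kinase Prkg2, which fell by 0.64 on the log2 scale, and without SAH 1d-3 Gucy1b1, a subunit of the receptor, was called lower too. Of 6 renin and angiotensin genes, 1 was called, the precursor Agt, which fell by 0.61 with an edgeR adjusted p of 0.049, and without SAH 1d-3 the receptor Mas1 was called lower too. Agt is made mainly by astrocytes in brain, and of 6 astrocyte markers Gfap was called higher at SAH 1d and Aldh1l1 lower.

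Among 10 receptors of other vasoconstrictors, 3 were called at SAH 1d, and 4 without SAH 1d-3. S1pr3, a receptor of sphingosine 1-phosphate that is found on smooth muscle, showed the largest change of the 7 lists at SAH 1d. It was 2.38 to 3.17 FPKM in sham, 8.06 to 22.6 FPKM at SAH 1d and 2.09 to 8.15 FPKM at SAH 7d. The sham and SAH 1d ranges were far apart, and S1pr3 rose by 2.23 ± 0.21 on the log2 scale with an edgeR adjusted p of 3.7e-05. From SAH 1d to SAH 7d it fell by 1.75 with an adjusted p of 0.0293 by edgeR. The serotonin receptor Htr2a fell by 0.94 and the neuropeptide Y receptor Npy1r by 0.55 at SAH 1d, and all 6 neuron markers fell in the same comparison. The part of that fall in these receptors, which cortical neurons express too, was not tested.

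Of 10 smooth muscle contraction genes, Tagln, an actin binding protein, rose by 0.66 ± 0.19, and the small GTPase Rhoa rose by 0.34 ± 0.11 at SAH 1d, while the myosin light chain Myl9 fell by 0.68. Myl9 was 13.9 to 22.5 FPKM in sham, 8.29 to 15.6 FPKM at SAH 1d and 15.4 to 25.4 FPKM at SAH 7d. It rose by 0.83 from SAH 1d to SAH 7d with an edgeR adjusted p of 0.0224. The contractile genes Acta2 and Myh11, at -0.29 ± 0.21 and -0.16 ± 0.18 at SAH 1d, were not called. Without SAH 1d-3, 4 of the 10 were called, with the kinase gene Rock2 as the fourth, lower by 0.41 on the log2 scale.

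**Figure D5:**
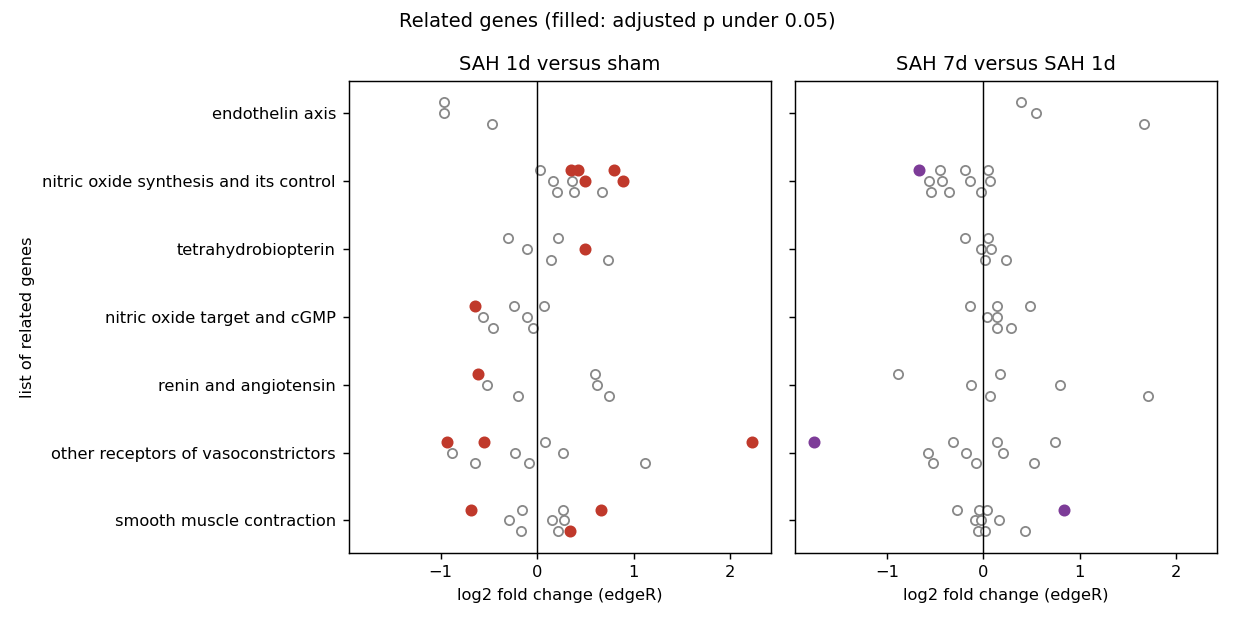
The plot shows the log2 fold change (horizontal axes) of each tested gene of the 7 lists of related genes (vertical axis), for SAH 1d versus sham on the left and SAH 7d versus SAH 1d on the right, with filled points for an edgeR adjusted p under 0.05. The farthest filled point on both sides is S1pr3, at 2.23 and -1.75, and the filled points of nitric oxide synthesis and its control are all to the right of 0 at SAH 1d.

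Each of the 9 genes was also matched to the gene whose log2 CPM followed it most closely over the 18 libraries, by Pearson's r and as a description, since the libraries share group, depth and the libraries that stood apart. The closest were Tmem69 for Edn1 (r = 0.84), Cdk12 for Ece1 (0.93), Mospd2 for Ednra (0.97), Poglut1 for Ednrb (0.84), Adnp for Nos1 (0.91), Riok3 for Nos2 (0.93), Podxl for Nos3 (0.93), Cct5 for Gch1 (0.95) and Fkbpl for Agtr1a (0.79). Without SAH 7d-5 and SAH 1d-3 the same pairs had r from 0.59 for Ednrb to 0.92 for Gch1. Over these 16 libraries the closest gene was another one for all 9, such as the neutrophil gene S100a9 for Nos2 (0.86) and the chemokine gene Cxcl10 for Gch1 (0.95).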

How the data were processed

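RNA of 18 rat cortex samples was sequenced in 3 groups of 6. Per the submitters' processing notes, reads were trimmed with fastp and aligned with HISAT2, and DESeq2 1.16.1 and the build mm9 are also named there, whereas the study's methods give the rat genome Rnor_6.0, release 95. The counting program is not given in the sources used here. The authors deposited whole-number counts per gene, with no normalization, and FPKM values that they scaled to transcript length and mapped reads, without pooling replicates. The library kit is not stated to mark strand, so reads of overlapping and antisense genes cannot be told apart. Libraries were placed in groups by their deposited descriptions, which equal the column names, since SAH titles are codes of another kind. Of the 30735 genes, 8685 are loci outside the annotation.

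Counts were tested with edgeR 4.0.16 in R 4.3.3: filterByExpr on all 18 libraries kept 18444 genes, TMM normalization was used, and the two-sided quasi-likelihood F test compared 12 libraries at a time with default settings. SE is the log2 fold change divided by the square root of F. Alternatives were DESeq2 size factors, the DESeq2 1.42.0 Wald test, limma 3.58.1 voom with quality weights, all 18 libraries in 1 fit, the replicate number as a block, no filter, at least 10 counts in every library, limma on log2(FPKM + 1) and log2(FPKM + 0.1) with a minimum mean FPKM of 0.5, no FPKM filter, each library left out, and SAH 7d-5 left out together with SAH 1d-3. Leaving out SAH 1d-4 with SAH 1d-6 was chosen after seeing the data. Total counts were 27270026 to 38271014, and each p-value sets the difference between groups against the spread between rats. The edgeR step was tested on simulated data with 200 changed genes. Of 2-fold changes, 76% were recovered for SAH 1d versus sham, 57% for SAH 7d versus sham and 39% for SAH 7d versus SAH 1d. For 4-fold changes these shares were 91, 85 and 86%. CPM was computed on TMM-scaled library totals, and log2 CPM used a prior count of 2.

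The 9 genes, the 7 lists and the marker lists were chosen with earlier results of these data known. Of each list the text names up to 3 called genes with the largest increase and decrease, and of each of the 9 genes the gene most like it. Marker genes, Edn3, Ece2, Mme, Gucy1b1, Mas1, Rock2, Acta2 and Myh11 named beyond this were chosen after their values were seen. Nos1ap, Prkg1, Pecam1 and Ccr2 were not analysed here, and Edn2, Agtr1b, Agtr2, S100a8 and Mpo had too few counts to test. The genes of 1 list, tetrahydrobiopterin, are not reported here one by one. Python 3.11.15, numpy 2.4.6, pandas 2.3.3 and matplotlib 3.10.9 were used for summaries and plots.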

Additional observations from a re-analysis of the deposited data

Results flagged for a closer look

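In 11 of the 27 sets of 6 libraries, 1 for each of the 9 genes and 3 groups, the highest library stood farther from the next one than Dixon's 95% limit allows. About 1 in 20 independent sets of normally distributed values would do so. That rate need not hold here, since FPKM was not log-transformed and the 27 sets share the same 18 libraries. SAH 1d-3 accounted for 5 of the 11, with FPKM levels of 6.73 for Edn1 (next 1.92), 38.6 for Ece1 (next 21.4), 7.94 for Nos2 (next 0.375), 9.19 for Nos3 (next 4.46) and 5.27 for Gch1 (next 2.28). SAH 7d-5 accounted for 3, with 6.98 for Ednra (next 1.81), 24.7 for Ednrb (next 15.7) and 0.266 for Nos2 (next 0.0754). In sham, Edn1 was 3.54 in sham-4 (next 2.60), Ednrb was 25.8 in sham-1 (next 13.5) and Nos1 was 3.20 in sham-5 (next 2.03). The summed monocyte and macrophage markers were 467 FPKM in SAH 1d-3 and 6649 FPKM in SAH 7d-5, and their part in these levels was not tested.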

How the results depend on the processing

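Ece1, Nos3 and Gch1 were called at SAH 1d under every alternative run, with adjusted p of at most 0.0279, 0.0372 and 0.00747. Nos2 was lost without SAH 1d-3 (adjusted p 0.0633), with the block (0.0714) and on the FPKM scale (0.114 to 0.452), and DESeq2 gave it no adjusted p. Ednra had an adjusted p of 0.00731 to 0.262. The replicate numbers did not pair the samples, since same-numbered libraries correlated at -0.25 to 0.20 over 18 pairs, with 1 pair over 0.1. With the replicate number as a block 3 genes were called at SAH 1d, Ece1, Nos3 and Gch1, and so were 3 with limma on log2(FPKM + 1) without a filter. Over all genes these fits called 3979 of 18444 and 4071 of 30735. On log2(FPKM + 1), 3703 of 4686 calls over all genes were higher at SAH 1d, against 2748 of 4684 on counts, and the median of all genes lay 0.09 above sham, or 0.11 with a pseudocount of 0.1.

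For SAH 7d versus SAH 1d, DESeq2 called 1 gene, all 18 libraries in 1 fit 2, voom 4, and the fit without SAH 7d-5 and SAH 1d-3 4. Over all genes these fits called 1012, 779, 2718 and 2512. Without SAH 1d-4 and SAH 1d-6, chosen after seeing the data, 0 were called, and Edn1 was -0.055 in this contrast and 0.035 against sham. Leaving out 1 library gave 0 to 2 calls, the 2 being Nos3 and Gch1 without SAH 7d-5, where 1545 of all genes were called. On the CPM scale, where transcript length is not removed, the log2 ratio of Ednra to Ednrb was -2.36 in sham, -1.84 at SAH 1d and -1.84 at SAH 7d, against -3.56, -3.04 and -3.04 in FPKM.

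The other sign changes concern log2 fold changes that were not called, and the cause was not tested. Without both of these libraries, Ednrb was -0.21 at SAH 1d, and at SAH 7d Edn1 was 0.045, Ednrb -0.13, Nos1 0.024 and Nos2 -0.39 against sham, with Nos1 at 0.058 in voom. Against SAH 1d, Ednrb was 0.063 and Ednra -0.22 without both, and Ednra was -0.28 in voom, -0.067 with the block, and -0.0063 and -0.063 on the FPKM scale with pseudocounts of 1 and 0.1, the former also without a filter. With 1 library left out, SAH 1d versus sham ran from -0.79 to 0.016 for Edn1, from -0.21 to 0.41 for Ednrb and from -0.66 to 0.17 for Agtr1a. SAH 7d versus sham ran from -0.18 to 0.087 for Edn1, -0.13 to 0.31 for Ednrb, -0.12 to 0.070 for Nos1, -0.39 to 0.52 for Nos2 and -0.089 to 0.11 for Nos3. SAH 7d versus SAH 1d ran from -0.046 to 0.76 for Edn1, -0.45 to 0.50 for Ednra and -0.29 to 0.24 for Ednrb. Counts of at most 12 for Nos2 in sham limit its fold changes.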
